A study of Ambystoma mexicanum with 7 samples.

Results

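Chromosome 14 of the axolotl, Ambystoma mexicanum, was described through the accessible sites on its 2 arms, 14p and 14q. Members were all peaks that the blastema, systemically activated and intact lists placed on a sequence named for either arm. They numbered 5405 of 211537 peaks, or 2.56%. The blastema list had 1384 peaks on 14p and 2786 on 14q, of 168368 in all. The systemically activated list had 190 and 325 of 17326, and the intact list 266 and 454 of 25843. Members were chosen by the position of called peaks, so the counts themselves are a description.

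The study used ATAC-seq, in which the Tn5 transposase tags open DNA, on 10000 sorted cells a library from wild type animals. All cells were alive and had a 4C DNA content, that of cells between DNA replication and division. The blastema group was blastema with wound epidermis (2 samples), for which no day is stated. The systemically activated group was limb tissue taken 14 days after an amputation (2 samples). The intact group was homeostatic limb tissue (3 samples), for which the series design gives the same 14 days. Peaks were listed once per group, not per sample, so differences could not be set against replicates and groups could not be tested against each other. Intervals below are 95% intervals over peaks, or for medians are joined from such intervals of each arm. They cover counting error only, while neighbouring peaks are not independent.

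Open sites in vertebrate chromatin lie largely at promoters and enhancers, where bound factors hold nucleosomes away. In the axolotl such sites are scattered through a very large genome, much of which consists of transposable elements and long introns. Progenitor cells gather under the wound epidermis of an amputated limb as the blastema, from which the limb regrows. In systemic activation, cells of uninjured limbs re-enter the cell cycle after another limb is lost.

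Depth differed between the lists. The lowest background at a summit, which moves with the number of reads, was 2.49 fragments in the blastema list, 0.375 in the systemically activated and 0.529 in the intact list. Levels were therefore compared between arms within a list and not between lists. Both arms were held as 1 uncut sequence each. From the first to the last peak of the all-sample list, 14p covered 184 Mb and was the shortest of the 28 named arms, while 14q covered 436 Mb, 2.37 times as much.

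Sites stood more densely on 14p than on 14q in all 3 lists. The blastema list held 7.51 peaks per Mb on 14p and 6.38 on 14q, a ratio of 1.18 (interval 1.10 to 1.25). In the systemically activated list the densities were 1.03 and 0.745 peaks per Mb (ratio 1.38, interval 1.15 to 1.66). In the intact list they were 1.44 and 1.04 (ratio 1.39, interval 1.19 to 1.62). The excess on 14p was larger among strong blastema sites: at a fold of at least 5 over background, 1.18 peaks per Mb stood on 14p and 0.775 on 14q, a ratio of 1.52. With joined peaks of up to 1 kb apart, a higher threshold or the span of each list itself, every ratio stayed above 1.

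Spacing followed the same order. The median distance from 1 peak to the next was 47.2 kb on 14p and 56.6 kb on 14q in the blastema list. It was 374 kb and 679 kb in the systemically activated list, and 251 kb and 464 kb in the intact list. The ratios of 14p to 14q were 0.833 (interval 0.653 to 1.01), 0.551 (0.357 to 0.919) and 0.540 (0.313 to 0.874). The blastema interval includes 1. These intervals were joined from the arms' own intervals, so they are wide for a ratio. Including 1 does not show that the medians are equal, and the difference was not tested.

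Quartiles and tails showed where the arms parted. In the intact list the lower quartile of spacing was 47.0 kb on 14p and 170 kb on 14q, and in the systemically activated list 109 kb and 276 kb. Distances of at most 1 kb made up 7.81% of blastema distances on 14p and 9.30% on 14q, a difference that was not tested. These shares were 5.29% and 4.63% in the systemically activated list and 6.04% and 5.52% in the intact list. Distances over 500 kb made up 5.28% of blastema distances on 14p and 6.39% on 14q. They were 43.9% and 57.1% of systemically activated and 34.3% and 47.9% of intact distances. Stretches of over 1 Mb without a peak took 20.2% of 14p and 24.2% of 14q in the blastema list. They took 72.8% and 80.4% in the systemically activated list and 68.8% and 74.1% in the intact list.

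**Figure D1:**
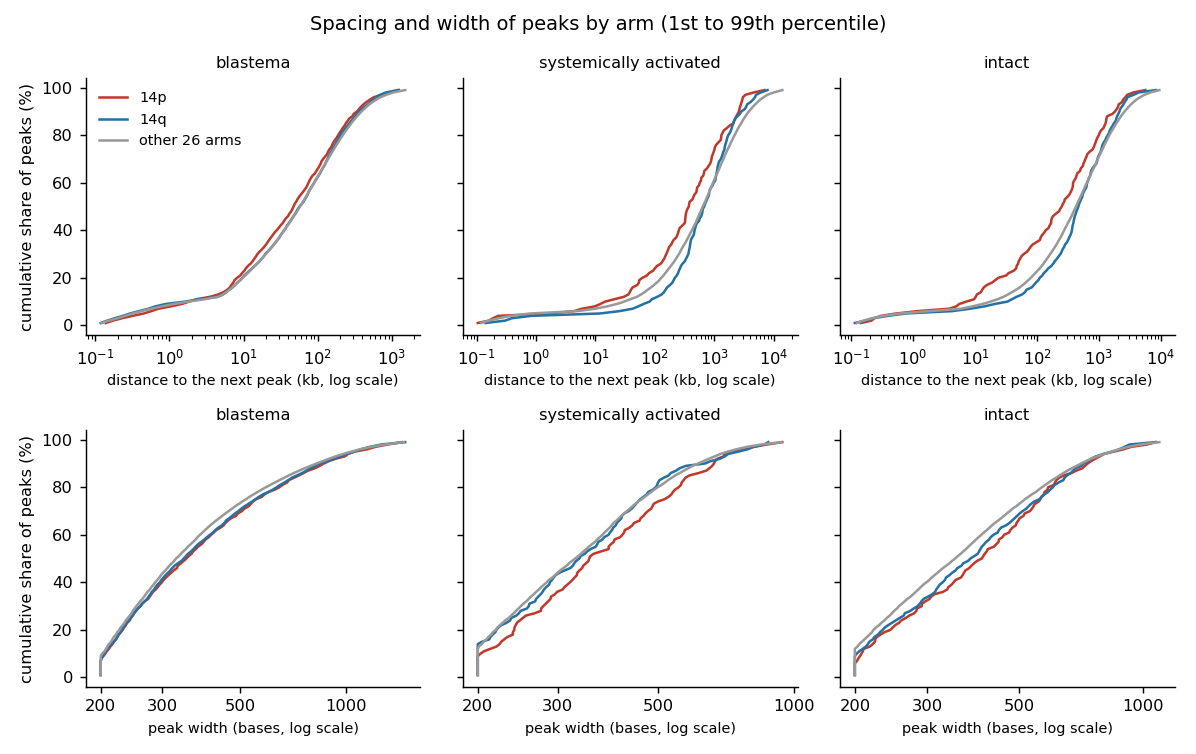
Cumulative share of peaks (y, percent) against the distance to the next peak (upper row, kb, log scale) and peak width (lower row, bases, log scale) for 14p, 14q and the other 26 named arms, 1 column per list. The 14p curves of the limb lists lie left of those of 14q in spacing, with medians of 374 and 679 kb in the systemically activated list and 251 and 464 kb in the intact list, while the width curves of the arms nearly coincide in the blastema list.

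Widths differed little between the arms in the blastema list, while differences in the limb lists were larger at some quartiles. Median widths on 14p and 14q were 351 and 345 bases in the blastema list, 352.5 and 335 bases in the systemically activated list, and 406 and 381 bases in the intact list. The intervals of the 3 differences, -21 to 33, -35 to 95 and -38 to 89 bases, all include 0. They were joined from the arms' own intervals in the same way, so they are wide for a difference. Quartiles in the blastema list were 244 and 556 bases on 14p and 243 and 554 bases on 14q. In the systemically activated list they were 251.5 and 517 bases on 14p and 237 and 457 bases on 14q. In the intact list they were 266 and 563 bases on 14p and 257 and 561 bases on 14q. These differences were not tested. The lowest width in every list was 200 bases. At that width stood 7.44% of 14p and 7.90% of 14q blastema peaks, 9.47% and 14.5% of systemically activated peaks, and 6.39% and 9.91% of intact peaks. Peaks of at least 1000 bases were 94 of 1384 on 14p (6.79%) and 173 of 2786 on 14q (6.21%) in the blastema list. The limb lists had 1 and 2 such systemically activated peaks, and 7 and 6 such intact peaks.

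Peaks on 14p also stood somewhat higher above background. Fold here means the authors' value for how far a summit's pileup exceeds the local background, as a ratio after a constant is added to both. Its median was 3.79 on 14p and 3.72 on 14q in the blastema list, 6.28 and 5.95 in the systemically activated list, and 5.66 and 5.44 in the intact list. The quartiles overlapped widely, at 3.30 and 4.55 on 14p against 3.25 and 4.36 on 14q in the blastema list. The median pileup recovered at the summits was 21 fragments on both arms in the blastema list, 15 and 14 in the systemically activated list, and 17 and 16 in the intact list.

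The sites of 14p were gathered in the first part of the arm. Positions run from the first base of the sequence, and which end is the telomere is not stated. The first 50% of the covered length held 59.3% of blastema peaks (interval 56.7 to 61.9), 65.3% of systemically activated peaks (58.0 to 72.0) and 66.9% of intact peaks (60.9 to 72.5). The windows from 20 to 40 Mb and from 40 to 60 Mb were the fullest of 20 Mb size in each list. They held 266 and 252 blastema, 36 and 50 systemically activated, and 59 and 70 intact peaks. The window from 40 to 60 Mb alone took 18.2% of the blastema, 26.3% of the systemically activated and 26.3% of the intact peaks of the arm. The last complete window, from 160 to 180 Mb, held 45, 9 and 11.

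Counted from the first base, the order on 14q was turned round, with sites gathered beyond the middle. Whether the arms differ relative to the telomere is not known. The first 50% held 29.0% of blastema peaks (27.3 to 30.7), 33.2% of systemically activated peaks (28.1 to 38.6) and 33.5% of intact peaks (29.1 to 38.0). In 4 equal parts of the arm, blastema density was 4.76, 2.64, 7.63 and 10.5 peaks per Mb. Systemically activated density was 0.577, 0.412, 0.889 and 1.10, and intact density 0.825, 0.568, 1.26 and 1.50 peaks per Mb. Part 2 was thus the emptiest and part 4 the fullest in each list.

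**Figure D2:**
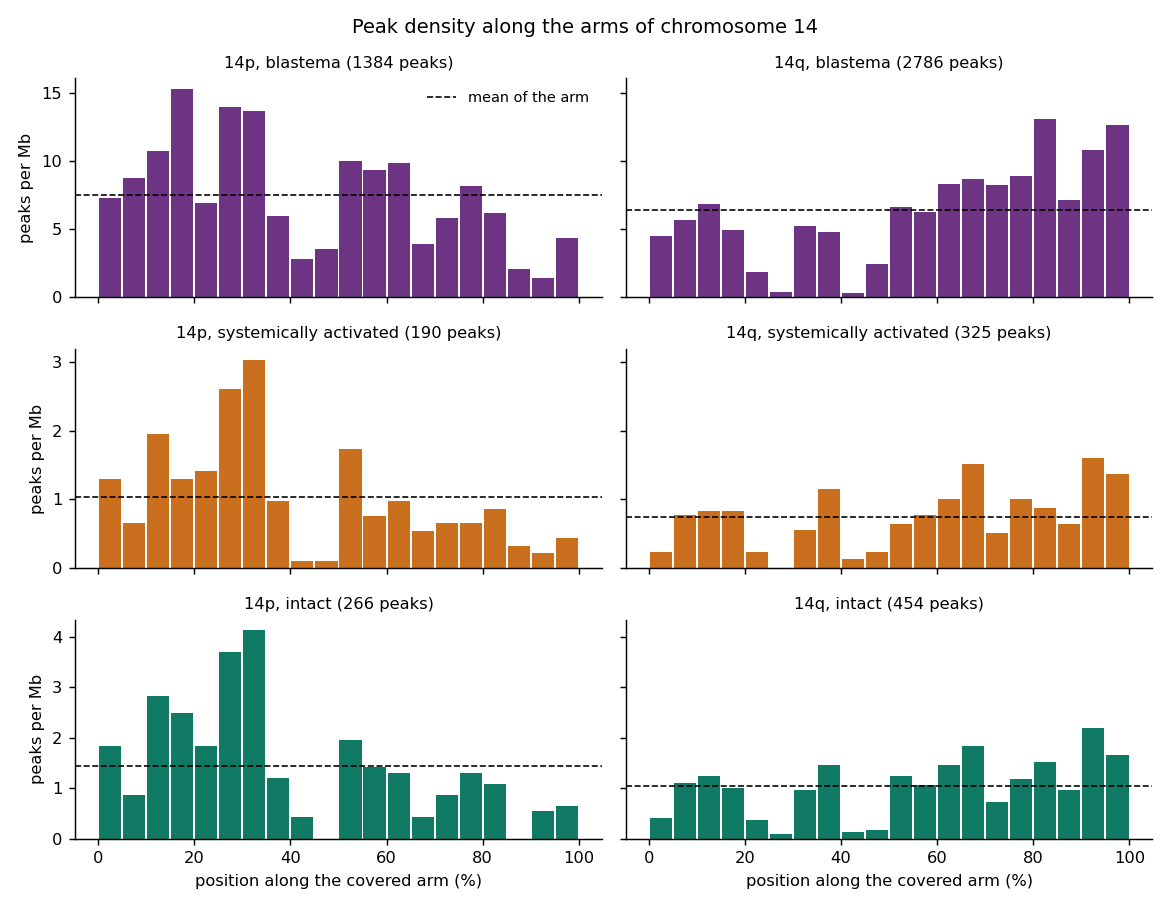
Peaks per Mb (y) in 20 equal bins along the covered length of each arm (x, percent), with 14p in the left and 14q in the right column, 1 row per list, and the mean of the arm as a dashed line. The 14p bars are highest within the first 40% of the arm, and the 14q bars are highest beyond its middle, with low points in the bins centred at 27.5% and 42.5%.

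Counts per window went together across the lists, though the fullest window of 14q was from 340 to 360 Mb for blastema peaks and from 400 to 420 Mb for both limb lists. Over 9 complete windows of 20 Mb on 14p, Pearson's r between window counts was 0.894 for blastema with systemically activated, 0.919 for blastema with intact and 0.988 for systemically activated with intact peaks. Over 21 windows on 14q these were 0.809, 0.846 and 0.962, with Spearman's rho from 0.799 to 0.927. Lists share the sequence that reads can be mapped to, and its part in these values was not tested.

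The emptiest windows of the chromosome lay on 14q. Its windows from 100 to 120 Mb and from 180 to 200 Mb held 5 blastema peaks each, where the median window of the arm held 116. Of 1282 complete windows on the other arms, 10 (0.780%) had 5 or fewer blastema peaks. The first window held no systemically activated and 1 intact peak, and the second 2 and 1. Windows with 5 or fewer peaks were common in the limb lists elsewhere, at 22.8% of systemically activated and 12.3% of intact windows on the other arms, against 14.3% and 9.52% on 14q. The all-sample list was also thin there, with 25 and 30 peaks. How much of these windows reads could be mapped to was not tested.

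On 14q, 5 stretches of over 5 Mb had no blastema peak, 42.6 Mb in all or 9.77% of the arm, and on 14p there was none. On the other arms such stretches took 4.54% of the length. The longest ran from 183255296 to 195536136 (12.3 Mb) and the next from 113147901 to 124152382 (11.0 Mb). Neither held a peak of any group list. The longest on 14p was 2.91 Mb, from 172379925 to 175286752, between peaks with folds of 3.46 and 4.18.

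Some of the sites around these empty stretches were in all 3 lists. At 14q:97814076-97814614 stood the blastema peak of highest fold on the chromosome (18.7, pileup 79), the 24th of 168368 in the list. Systemically activated (fold 11.0) and intact (fold 11.3) peaks overlapped it. It is the left edge of a stretch of 33.3 Mb without another systemically activated peak and of 6.99 Mb without another blastema peak, and its nearest blastema neighbour was 1829853 bases away.

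At the right edge of the longest stretch stood 14q:195536137-195537438, with a blastema neighbour 12255 bases away. It was 1302 bases wide in the blastema list, with a fold of 4.57 and a pileup of 57. Systemically activated and intact peaks of 542 and 579 bases overlapped it, with folds of 6.05 and 6.13. On its far side the systemically activated list had no peak for 18.3 Mb and the intact list none for 15.8 Mb.

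A further site lay between them at 14q:179028931-179029171 (fold 8.30, pileup 28). Its nearest blastema neighbour was 3662653 bases away, and both limb lists overlapped it.

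Blastema peaks with no blastema neighbour within 1 Mb numbered 2 of 1384 on 14p (0.145%) and 9 of 2786 on 14q (0.323%), against 0.444% on the other arms. Both limb lists overlapped 1 and 2 of them, beside 16 of 707 on the other arms. The other isolated peaks on 14q had folds from 3.18 to 6.01 and no limb overlap. The overlapped one on 14p was 14p:166344305-166345157, which had the highest fold of that arm (12.4).

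At the other extreme were blocks of 1 Mb crowded with sites. The fullest on 14p ran from 55000001 to 56000000 with 44 blastema, 9 systemically activated and 17 intact peaks, and the next from 49000001 to 50000000 with 40, 9 and 16. The median 1 Mb window of the arm had 6, 0 and 1. Of 26749 windows on all named arms, 28 (0.105%) held at least 44 blastema peaks and 6 (0.0224%) at least 17 intact peaks. In the block from 55000001, intact peaks overlapped 14 of 44 blastema peaks, and both other lists overlapped 7 of 9 systemically activated and 7 of 17 intact peaks. In the block from 49000001 these counts were 15 of 40, 9 of 9 and 9 of 16. Over the whole lists the shares were 13.2%, 75.3% and 49.7%.

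The fullest blocks of 14q held fewer limb peaks. From 351000001 to 352000000 stood 37 blastema, 3 systemically activated and 4 intact peaks, and from 432000001 to 433000000 stood 35, 2 and 3. Neither limb list overlapped 29 of 44 and 25 of 40 blastema peaks in the 14p blocks, against 33 of 37 and 32 of 35 in the 14q blocks and 85.1% of the whole list. Median fold of the blastema peaks was 4.42 and 4.01 in the 14p blocks and 3.12 and 3.72 in the 14q blocks. The blocks were picked as the fullest, so these are descriptions.

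Chains of at least 5 blastema peaks, each within 10 kb of the next, were more frequent on 14p: 10 chains or 5.43 per 100 Mb, against 7 chains or 1.60 per 100 Mb on 14q and 2.52 on the other arms. They held 4.12% of 14p and 1.36% of 14q blastema peaks. The largest on 14p joined 8 blastema peaks over 30415 bases from 56149995 to 56180409, with 3 systemically activated and 4 intact peaks. The largest on 14q joined 7 over 39925 bases from 351236362 to 351276286, with 1 intact peak and no systemically activated one.

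Most limb sites of chromosome 14 recurred in the other lists as deposited, while the far longer blastema list held many sites that the limb lists did not. Overlap means that at least 1 base was shared. An intact peak overlapped 154 of 190 systemically activated peaks on 14p (81.1%, interval 74.7 to 86.4) and 255 of 325 on 14q (78.5%, 73.6 to 82.8). Over the whole list the share was 75.9%. A systemically activated peak overlapped 151 of 266 intact peaks on 14p (56.8%, 50.6 to 62.8) and 253 of 454 on 14q (55.7%, 51.0 to 60.4), beside 50.2% of the whole list.

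As deposited, most limb peaks shared at least 1 base with a blastema peak. That held for 177 of 190 systemically activated peaks on 14p (93.2%) and 308 of 325 on 14q (94.8%), beside 93.9% of the whole list. It held for 248 of 266 intact peaks on 14p (93.2%) and 416 of 454 on 14q (91.6%), beside 89.9%. These shares depend on list length and on the overlap required. With each list cut to its 17326 peaks of highest −log10 q, they were 73.7% on 14p and 67.4% on 14q for systemically activated peaks, and 74.5% and 74.8% for intact peaks. Where 50% of each interval had to be shared, they were 42.6% and 31.7%, and 53.0% and 50.2%. Whole-list shares under these settings are not given, so there the arms stand beside each other only.

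Seen from the blastema, systemically activated peaks overlapped 167 of 1384 sites on 14p (12.1%, 10.4 to 13.9) and 297 of 2786 on 14q (10.7%, 9.54 to 11.9). The share over the whole list was 9.23%. Intact peaks overlapped 235 sites on 14p (17.0%, 15.0 to 19.1) and 399 on 14q (14.3%, 13.0 to 15.7), beside 13.2%. Of the 6 differences between the arms, only that in this last share, 2.66 percentage points, had an interval without 0 (0.339 to 5.08). The interval makes no allowance for the 6 differences looked at or for neighbouring peaks not being independent. The difference was not tested. When each arm was weighted to the strength of the whole list, the shares came to 13.3% and 12.9%, and the difference was 0.441 points. Cutting each list to the length of the shortest kept only its peaks of highest −log10 q. This left 208 of 1384 blastema peaks on 14p and 324 of 2786 on 14q. Of these strong blastema peaks, systemically activated peaks overlapped 62.5% on 14p and 64.8% on 14q, and intact peaks 69.7% and 68.2%. The weaker blastema peaks are left out there, so these are not shares of all blastema sites. More 14p blastema peaks stood in the strongest 10% of the uncut list by −log10 q, 14.7% against 11.3% on 14q.

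Strength went with sharing on both arms. Of the blastema peaks in that strongest 10%, intact peaks overlapped 77.0% on 14p and 79.1% on 14q, and in the weakest 10% 0.794% and 0.394%. All 31 systemically activated peaks of the strongest 10% on 14p and all 35 on 14q were overlapped by an intact peak. The whole list's shares within these strength classes are not given. Whether chromosome 14 differs from the whole list here is therefore not known.

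**Figure D3:**
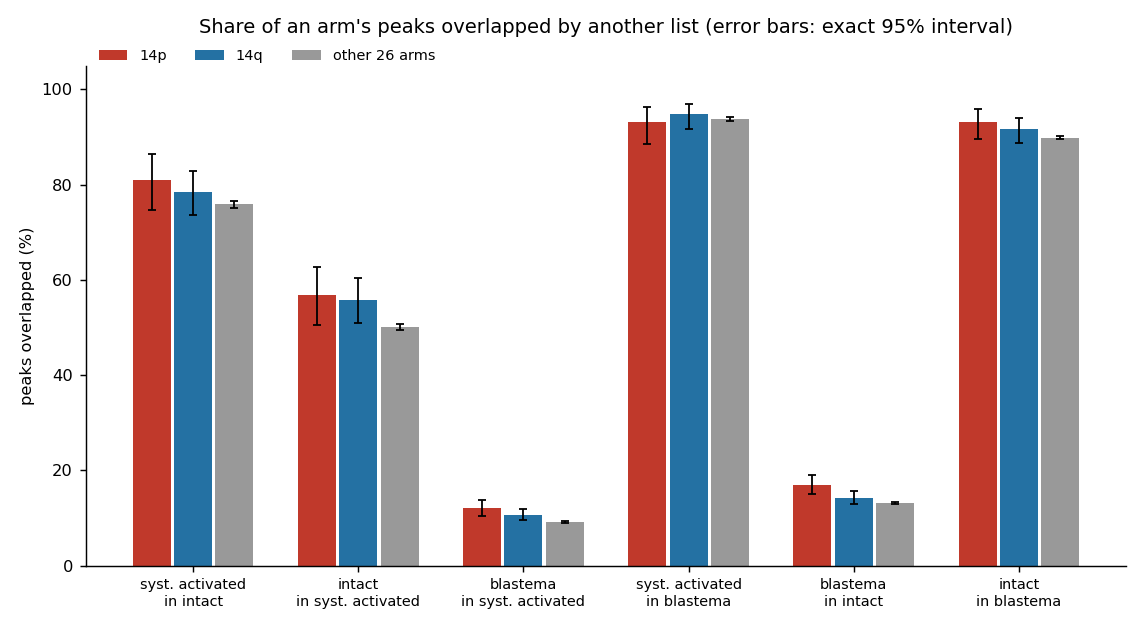
Share of peaks (y, percent) of the first-named list that a peak of the second-named list overlaps, for 14p, 14q and the other 26 named arms, with exact 95% intervals over peaks. The arms of chromosome 14 lie close together in all 6 pairs, at 81.1% and 78.5% for systemically activated peaks in the intact list and at 17.0% and 14.3% for blastema peaks in the intact list.

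Joined across the lists, the peaks formed 1412 sites on 14p and 2839 on 14q. All 3 lists met at 143 sites of 14p (10.1%, 8.60 to 11.8) and 247 of 14q (8.70%, 7.69 to 9.80), or 0.776 and 0.566 sites per Mb. The other arms had 7.38% and 0.460 per Mb. Sites of the blastema list only were 1125 of 1412 on 14p (79.7%) and 2337 of 2839 on 14q (82.3%), beside 83.5% on the other arms.

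Sorted by both other lists at once, 92 blastema peaks on 14p and 152 on 14q met intact peaks alone, beside 5.63% of the whole list (6.65% and 5.46% on the arms). Systemically activated peaks alone met 24 (1.73%) and 50 (1.79%), beside 1.66%. Of the systemically activated peaks, 151 (79.5%) on 14p and 253 (77.8%) on 14q met both other lists, beside 75.3% of the whole list. Blastema peaks alone met 26 (13.7%) and 55 (16.9%), beside 18.6%, intact peaks alone 3 (1.58%) and 2 (0.615%), beside 0.687%, and no other list 10 (5.26%) and 15 (4.62%), beside 5.44%. Most intact peaks of the chromosome thus also stood in some other list. Both other lists met 148 (55.6%) of them on 14p and 251 (55.3%) on 14q, beside 49.7%. Blastema peaks alone met 100 (37.6%) and 165 (36.3%), beside 40.2%, systemically activated peaks alone 3 (1.13%) and 2 (0.441%), beside 0.472%, and no other list 15 (5.64%) and 36 (7.93%), beside 9.63%.

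Shared sites were the wide and strong ones. Blastema peaks that both limb lists overlapped were 143 of 1384 on 14p (10.3%) and 247 of 2786 on 14q (8.87%), beside 7.56% of the whole list. They had a median width of 880 bases on 14p and 944 on 14q. Their median fold was 5.43 and 5.16 and their median pileup 63 and 57 fragments. Blastema peaks with no limb overlap, 1125 (81.3%) and 2337 (83.9%) beside 85.1% of the whole list, had a median width of 305 bases on both arms, folds of 3.69 and 3.62 and a pileup of 19. On the other arms the median widths of these classes were 954 and 299 bases and the median folds 4.74 and 3.52. The limb lists are shallower and shorter than the blastema list, and a wide peak has more bases at which an overlap counts. The parts of depth and width in this contrast were not tested.

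Where peaks of 2 lists met, the distance between their summits was measured, which the widths of the overlapping peaks keep short. The median distance between a systemically activated summit and the nearest summit among overlapping blastema peaks was 56 bases on 14p and 77.5 on 14q. For intact summits it was 77 and 90.5 bases. On the other arms the medians were 82 and 84 bases. The blastema peak at such a site was 2.07 and 2.36 times as wide as the systemically activated peak, and 1.74 and 1.85 times as wide as the intact peak, at the median. On the other arms these ratios were 2.43 and 1.98. Widths move with depth, which differed between the lists, and the part of depth in these ratios was not tested.

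Sharing was also set against crowding. On 14p, both limb lists overlapped 7.66% (4.44 to 12.1) of blastema peaks with a blastema neighbour within 1 kb and 10.9% (7.26 to 15.6) of those with none within 100 kb. On 14q the shares were 8.57% (6.25 to 11.4) and 10.6% (8.07 to 13.7). These intervals overlap on each arm. On the other arms the shares were 6.93% and 6.52%. At least 1 limb list overlapped 20.1% and 16.4% of such peaks on 14p, and 15.5% and 19.5% on 14q. On the other arms it was 16.0% and 13.1%. Along 14p, intact peaks overlapped 21.7% of blastema peaks in part 2 of 4 (17.6 to 26.2), the highest share. The lowest was 12.7% in part 4 (8.50 to 18.1), and these intervals just overlap. On 14q the 4 parts had shares between 13.1% and 17.4%, and those intervals overlap too. Overlap of separate intervals does not show that shares are equal, and the differences were not tested.

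Among the sites named by a fixed rule, the strongest shared ones of 14p followed the isolated peak at 166344305. The blastema peak at 14p:141092388-141092820 had a fold of 11.7, with systemically activated (fold 6.67) and intact (fold 11.1) counterparts of 324 and 369 bases inside its 433. Next came 14p:169117027-169117526, with a blastema fold of 10.3, and with 6.54 in the systemically activated and 5.89 in the intact list. On 14q the next 2 after the peak at 97814076 were 14q:290975304-290975674 (fold 12.9, with 7.41 and 13.6 in the systemically activated and intact lists) and 14q:430814791-430815463 (fold 9.52, with 10.3 and 9.62).

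Of the 3 strongest blastema sites of 14p without a limb overlap, the first lay at the start and the next near the end of the arm. The first blastema peak of the sequence, 14p:25431-25995, had the highest fold of this kind on the arm (8.30), and the nearest limb peak was 556647 bases away. Next was 14p:183265041-183265407 (fold 8.12), 3931067 bases from the nearest limb peak, and then 14p:15921776-15922776 (fold 8.01). On 14q they were 14q:239551099-239551444 (fold 9.44), 14q:211742840-211743685 (fold 8.42) and 14q:221980097-221980365 (fold 8.30). Of these, the one of highest fold lay 35095 bases from a limb peak and the last-named 801070.

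Limb peaks held by 1 limb list were mostly in the blastema list too, as they were in the whole lists. Of systemically activated peaks without an intact overlap, a blastema peak overlapped 26 of 36 on 14p and 55 of 70 on 14q. In the whole list it was 3225 of 4168. Of intact peaks without a systemically activated overlap, it was 100 of 115 and 165 of 201, beside 10390 of 12878. Without an intact overlap, the highest folds among systemically activated peaks were at 14p:48440493-48440714 (fold 7.39) and 14p:111416244-111416658 (fold 7.30), and on the other arm 14q:362122130-362122403 (fold 8.54) and 14q:435248136-435248433 (fold 7.79). A blastema peak overlapped all 4. Without a systemically activated overlap, the highest folds among intact peaks were at 14p:24510809-24511068 (fold 9.66), 14p:50130146-50130657 (fold 8.54) and 14q:402733249-402733734 (fold 8.0), each under a blastema peak. The next, 14q:64677021-64677240 (fold 7.78), missed the nearest blastema peak by 106 bases.

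Few limb sites had no blastema counterpart. They were 13 of 190 systemically activated and 18 of 266 intact peaks on 14p, and 17 of 325 and 38 of 454 on 14q, beside 1062 of 17326 and 2610 of 25843 in the whole lists. They were narrow, with median widths of 220 and 227 bases on 14p and 220 and 225 bases on 14q. The all-sample list, which includes the limb samples and so is no separate evidence, held most of them. It held 12 of 13 and 17 of 18 on 14p, and 16 of 17 and 32 of 38 on 14q. On the other arms it held 860 of 1005 and 2073 of 2468. By fold, the highest among the intact ones were 14p:93061774-93061973 (7.41) and the 14q peak at 64677021 already named, neither of them in the systemically activated list.

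In both limb lists without a blastema peak were 5 sites, 3 of 1412 on 14p (0.212%) and 2 of 2839 on 14q (0.0704%). The share on the other arms was 0.0646%. The systemically activated peak at 14p:27403722-27403941 had a fold of 6.49, the intact peak there a fold of 5.89, and the nearest blastema peak was 235105 bases away. At 14q:353663068-353663284 the systemically activated peak had a fold of 6.76 and a pileup of 22, and the intact peak, 644 bases wide, a fold of 5.81 and the same pileup. The nearest blastema peak was 18726 bases from the systemically activated one. The remaining 3 were at 14p:34074704-34075000, 14p:55644339-55644931 and 14q:225192506-225192755 in the systemically activated list, with folds of 5.32, 5.00 and 4.47.

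The widest blastema sites were of mixed kinds. On 14q the peak at 14q:382399685-382401786 was 2102 bases wide with a pileup of 228. Inside it lay a systemically activated peak from 382400052 to 382401737 (1686 bases) and an intact peak from 382400070 to 382401750 (1681 bases). The next, 14q:50251724-50253775 (2052 bases), met 2 intact and no systemically activated peaks. The widest of 14p, 14p:119629411-119631360 (1950 bases), met 2 peaks of each limb list, and 14p:145092839-145094743 (1905 bases) met 1 intact peak.

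Beside the other 26 named arms, 14p stood at or near the top in several measures. Its median fold was the highest of the 28 arms in each list, where the others ran from 3.53 to 3.77 in the blastema, 5.51 to 5.93 in the systemically activated and 5.11 to 5.56 in the intact list. Its limb peaks were also the widest at the median, with other arms from 306 to 351 bases in the systemically activated and 318 to 370 bases in the intact list. The share of limb peaks that met the other limb list was also highest on 14p of the 28 arms, counted from either list. Weighted to the strength of the whole list, an alternative chosen after seeing the data, the order of 14p and 14q turned: the share was 77.7% on 14p and 79.4% on 14q for systemically activated peaks, and 48.8% and 55.8% for intact peaks. Its single highest blastema fold, 12.4, was in turn the lowest such maximum of the 28 arms, where the others ran from 13.4 to 25.8. The arm also held the fewest blastema peaks of the 28, at 1384. The part of that number in its low maximum was not tested. In density 14p ranked 5, 3 and 3 from the top in the blastema, systemically activated and intact lists. These ranks are descriptions of 1 list each and carry no test.

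The arm 14q lay closer to the middle in density, with ranks 12, 9 and 11, but high in median fold, with ranks 5, 2 and 3. In the blastema list the 7 highest median folds were those of the 7 shortest arms, 14q among them. The median intact width of 14q, 381 bases, was second only to that of 14p. The ratio of 14p to 14q in density had ranks 6, 4 and 2 from the highest among 14 chromosomes. The ratio in median spacing was the lowest of the 14 in both limb lists, at 0.551 and 0.540, where the other 13 ran from 0.765 to 1.49 and from 0.742 to 1.60.

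**Figure D4:**
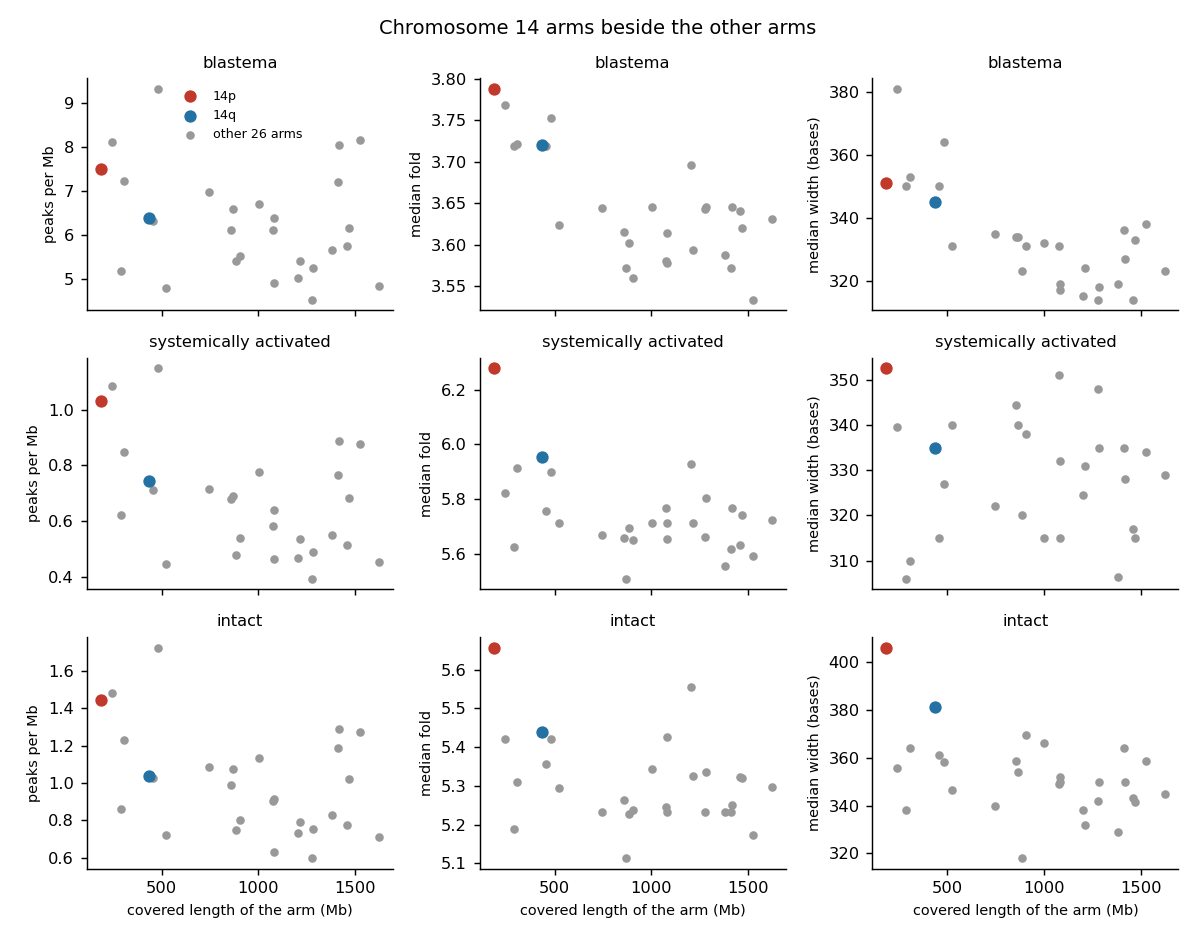
Peaks per Mb, median fold and median width in bases (y, 1 column each) against the covered length of the arm in Mb (x) for 14p, 14q and the other 26 named arms, 1 row per list; axes do not start at 0. The 14p point is the highest in median fold in all 3 rows, at 3.79, 6.28 and 5.66, and in median width in both limb rows.

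The 7 shortest arms had the 7 highest median folds and the 7 highest median widths of blastema peaks. Over the 28 arms, the covered length and the median blastema fold had a Pearson's r of -0.705 and a Spearman's rho of -0.555, and over the 26 arms without chromosome 14 these were -0.633 and -0.449. For median width the values over 28 arms were -0.749 and -0.656. In the limb lists the relation of fold to length was weaker without chromosome 14, with r of -0.304 in the systemically activated and -0.123 in the intact list. The points share their libraries, and the 7 shortest arms are also the 7 held as 1 uncut sequence. Median blastema folds ran from 3.72 (12p) to 3.79 (14p) on those arms, and from 3.53 (3q) to 3.70 (4p) on the cut arms. Among the cut arms, the shortest (10q, 525 Mb) had 3.62 and the longest (6q, 1624 Mb) 3.63. The parts of length and of the cutting of sequences were not tested.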

How the data were processed

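ATAC-seq of sorted 4C cells gave 1 narrowPeak list per group and 1 over all 7 samples. Reads were processed with Bowtie2 2.3.2 and MACS2, per the submitters' processing notes. Genome build: not given in the sources used here, as is how samples were combined. Per peak, the authors deposited a position, a score (not used further), a fold and −log10 p and −log10 q values. The fold was read as the ratio of summit pileup to background, with 1 added to each.

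From these, distances, widths, overlaps (at least 1 base) and counts per window were computed with Python 3.11.15, numpy 2.4.6, pandas 2.3.3 and scipy 1.17.1, and checked on simulated lists. Pileup and background at the summit were solved from fold and p (tolerance 0.001) for all blastema peaks and all but 1 peak of each limb list on the chromosome. Arm length was the span of the all-sample list. Depth per sample is unknown. Shares carry exact Clopper-Pearson 95% intervals, share differences Newcombe intervals and density ratios exact conditional intervals. Ratios and differences of medians carry the joined ends of each arm's order-statistic interval. Members and lists were chosen with earlier results of these data known. Named peaks followed a fixed rule: per arm, the 3 blastema peaks of highest fold with both limb lists and with neither, the 2 of highest fold of each limb list without the other, 1 of each without blastema, the 2 widest, the neighbours of the longest gap and the fullest 1 Mb window. The second fullest window, the isolated peaks and the sites of both limb lists without blastema were chosen after their values were seen. Genes, sequences and motifs were not analysed here.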

Additional observations from a re-analysis of the deposited data

Results flagged for a closer look

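The list called over all 7 samples held peaks that no group list overlapped. On 14p they were 2026 of 3333 all-sample peaks (60.8%, exact interval 59.1 to 62.4), and on 14q 4116 of 6742 (61.1%, 59.9 to 62.2), against 68.0% on the other arms. They drew attention as signal outside the lists compared above, which have no control samples. They were narrower than the all-sample peaks that some group list overlapped, with medians of 268 and 535 bases on 14p and 267 and 531 bases on 14q. Median folds were 3.02 and 3.64 on 14p and 2.94 and 3.51 on 14q. The highest fold among them was 5.74 on each arm.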

How the results depend on the processing

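Of 114 recomputed comparisons between arms and window values, 97 stayed within the interval of the value reported and 17 moved outside it. Some of the 97 could hardly move. The systemically activated list is itself the shortest, so cutting to that length leaves it unchanged. The blastema list spans nearly the same length of each arm as the all-sample list. The moved ones follow, and the cause was not tested. Where the sign turned, the interval of the value reported included 0. For blastema peaks, the ratio of 14p to 14q in median distance was 0.622 at −log10 q of at least 5, 0.542 at a fold of at least 5 and 0.520 with lists cut to the 17326 peaks of the shortest. The density ratio was 1.52 in each of the last 2 settings, the width difference 39 and -24 bases there, and the share in the first part of 14p 64.8%, 67.7% and 67.8% in the 3 settings. As differences of 14p minus 14q in percentage points, blastema peaks in the systemically activated list gave -2.31 with lists of the shortest length. Systemically activated peaks in the blastema list gave 6.56 at a fold of at least 5, 6.30 with lists of the shortest length and 10.9 where 50% of each interval had to be shared. Intact peaks in the systemically activated list gave -7.07 when weighted to the strength of the whole list, an alternative chosen after seeing the data. The fullest window over the mean was 2.20 on 14p and 2.71 on 14q with 10 Mb windows. The shares of single arms were less stable: of 72 recomputed, 49 moved outside their interval, blastema in systemically activated peaks on 14p to 62.5% with lists of the shortest length and systemically activated in blastema peaks on 14q to 31.7% where 50% of each interval had to be shared. No paired analysis was possible because each group has 1 list and its samples have no values of their own, and for the same reason no replicate could be left out. Sites too weak to be called in the shallower limb lists cannot be counted as shared.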
